A study of Mus musculus with 12 samples.

Results

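Interferon-stimulated genes are the genes that cells switch on after sensing interferon, and 39 of them, chosen by symbol from the type I interferon response with the guanylate-binding proteins left out, are described here in wounded mouse skin. All 39 were found among the 29956 named genes of the count table, and all 39 passed the filter on low counts that left 18218 genes for testing. Full-thickness punch wounds in the back skin of B6.BKS(D)-Leprdb/db mice were given Alcaligenes faecalis, Staphylococcus aureus, or a vehicle of phosphate-buffered saline with glycerol, and total RNA of the skin was sequenced at day 3. Each group had 4 mice, and each library is read as 1 mouse. Mice of every group, vehicle included, carried the Leprdb/db genotype, which takes away the working leptin receptor and makes the animals obese and diabetic. No non-diabetic wound, no unwounded skin and no other day was analysed here, and the labels used here give no age. Library totals were 42.2 to 71.3 M (mega) estimated counts with A. faecalis, 38.4 to 58.4 M with S. aureus and 51.9 to 62.4 M with vehicle.

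Type I interferons bind the receptor chains Ifnar1 and Ifnar2, and the kinases Jak1 and Tyk2 then activate the transcription factor Stat2. With Irf9 it forms part of a complex that binds the interferon-stimulated response element in gene promoters, and the induced proteins sense foreign RNA and DNA, tag proteins with ISG15, degrade RNA or block translation. Interferon gamma acts through a receptor of its own and through the factor Irf1, and it shares many of its target genes with type I interferon. In skin wounds, plasmacytoid dendritic cells and other cells that meet bacteria or nucleic acids of damaged cells are known sources of interferon.

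Promoter sequences are shown for 7 genes, chosen because they were called for A. faecalis against S. aureus in the test described below. Their promoters also held letters that match the core of the element on which the complex of Stat2 and Irf9 acts. The core of that element, GAAA, then any 2 bases, then GAAA, was searched on both strands (on the other it reads TTTC, 2 bases, TTTC), overlapping copies included, within 250 bases before to 50 bases after the annotated start, in the RefSeq promoters of build GRCm38.p6. Of the 39 genes 29 had an entry, and 14 of those (48.3%) held the core, against 1079 of the 27025 genes in the promoter table (3.99%). In the lines below, written 5′ to 3′ in the direction of the gene, capitals mark the core and its copies. The windows lie at chr4:156200856-156200915 (minus strand) for Isg15, chr10:128270251-128270310 (plus strand) for Stat2, chr19:34640769-34640828 (plus strand) for Ifit1, chr12:26456538-26456597 (minus strand) for Rsad2, chr5:120777700-120777759 (minus strand) for Oas3, chr17:78882538-78882561 (minus strand) for Eif2ak2 and chr4:40239807-40239830 (minus strand) for Ddx58.
Isg15: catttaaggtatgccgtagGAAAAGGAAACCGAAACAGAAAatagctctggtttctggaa
Stat2: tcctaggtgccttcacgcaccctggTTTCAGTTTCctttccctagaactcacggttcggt
Ifit1: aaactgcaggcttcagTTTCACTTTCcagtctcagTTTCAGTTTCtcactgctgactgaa
Rsad2: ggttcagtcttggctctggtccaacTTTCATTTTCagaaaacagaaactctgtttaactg
Oas3: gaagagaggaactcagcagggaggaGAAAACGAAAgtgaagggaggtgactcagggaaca
Eif2ak2: ccgccggGAAAACGAAAcagaaga
Ddx58: gaggcagTTTCGATTTCctatggc

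Isg15 held 3 overlapping copies in a run, Ifit1 held 2 separate copies, and the other 5 printed promoters held 1 copy each. In Eif2ak2 and Ddx58 the copy lies just after the start, and in the other 5 it lies upstream. The core was also held by Ifih1, Ddx60, Ifit3, Oas1a, Oas1g, Bst2 and Ifitm3, which are not printed and were called in no comparison. Genes with an entry whose window held no copy of these letters included Irf7 and also Oasl2, Samd9l and Irf9, which were called. Such a match describes the letters in the window and is not evidence that a factor bound there in these wounds.

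Levels are given as CPM, the counts per M (mega) of library size after TMM scaling (trimmed mean of M-values), and differences as log2 fold changes with their standard error (SE). Genes were tested by quasi-likelihood in edgeR, p-values were adjusted over all 18218 genes tested (Benjamini-Hochberg), and a gene was called at an adjusted p under 0.05. Reads are shared among close relatives such as Oas1a and Oas1g, the Ifit genes, or Tgtp1 and Tgtp2, so the division of counts between such neighbours is uncertain. In whole tissue, fewer cells of a type and less RNA per cell cannot be told apart.

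S. aureus wounds had higher levels than vehicle wounds for 4 antiviral effector genes, 3 of them among the 6 oligoadenylate synthetase family genes described here. In S. aureus against vehicle wounds, 4 of the 39 genes (10.3%) were called, all higher: Oas3, Oasl2, Oas2 and Eif2ak2. In the same comparison 6.84% of all genes tested were called, 3.87% higher and 2.97% lower, and at an unadjusted p under 0.05 there were 15 of the 39 genes (38.5%) against 27.0% of all genes. The median log2 fold change of the 39 genes was 0.36, against -0.037 over all genes tested, and 36 of the 39 had a value above 0 (34 with upper-quartile scaling), where 54.7% of all genes had a value below 0. The groups did not overlap for 7 of the 39 (17.9%), all higher with S. aureus: the 4 called genes and Ddx58, Zbp1 and Parp14. Over all genes tested, 15.1% did not overlap and 7.56% did so with the S. aureus libraries higher. Without S. aureus replicate 3 the median was 0.17.

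A. faecalis wounds had no called gene among the 39 when set against vehicle wounds. Only 2 of all genes tested (0.0110%) were called in this comparison, so it offered little room for a call by this test, and DESeq2 and limma-voom called none of the 39 either. At an unadjusted p under 0.05 there were 3 of the 39 genes (7.69%), Oas3, Ifi27l2a and Mx2, against 7.68% of all genes tested. The fitted values lay mostly on the low side: 35 of 39 (89.7%) were below 0 (34 with upper-quartile scaling or DESeq2 size factors), against 56.2% of all genes, with a median of -0.23 against -0.028. That median became -0.36 in a fit lacking vehicle replicate 4, and -0.15 in fits lacking A. faecalis replicate 1 or vehicle replicate 3. Ddx58 alone had groups that did not overlap (2.56% of the 39), lower with A. faecalis, where 4.05% of all genes tested did not overlap and 2.56% did so with A. faecalis lower, and its adjusted p by edgeR was 0.668.

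The separation was widest between the groups given bacteria. A. faecalis wounds had lower levels than S. aureus wounds for 12 called genes of the 39 (30.8%) and higher levels for 0, where 12.7% of all genes tested were called, 7.62% lower and 5.06% higher. An unadjusted p under 0.05 was reached by 28 of the 39 (71.8%) and by 28.2% of all genes. The 12 were Oas3, Oasl2, Oas2, Ddx58, Stat2, Eif2ak2, Isg15, Zbp1, Samd9l, Ifit1, Rsad2 and Irf9. The median of the 39 was -0.53, against 0.022 over all genes, and 38 of the 39 values (97.4%) were below 0, against 47.3% of all genes, Lgals3bp being the exception. Groups did not overlap for 13 of the 39 (33.3%), all lower with A. faecalis, where 23.3% of all genes did not overlap and 11.8% did so with A. faecalis lower. These 3 comparisons share their groups pairwise, so their values are set side by side and are not independent of each other.

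**Figure D1:**
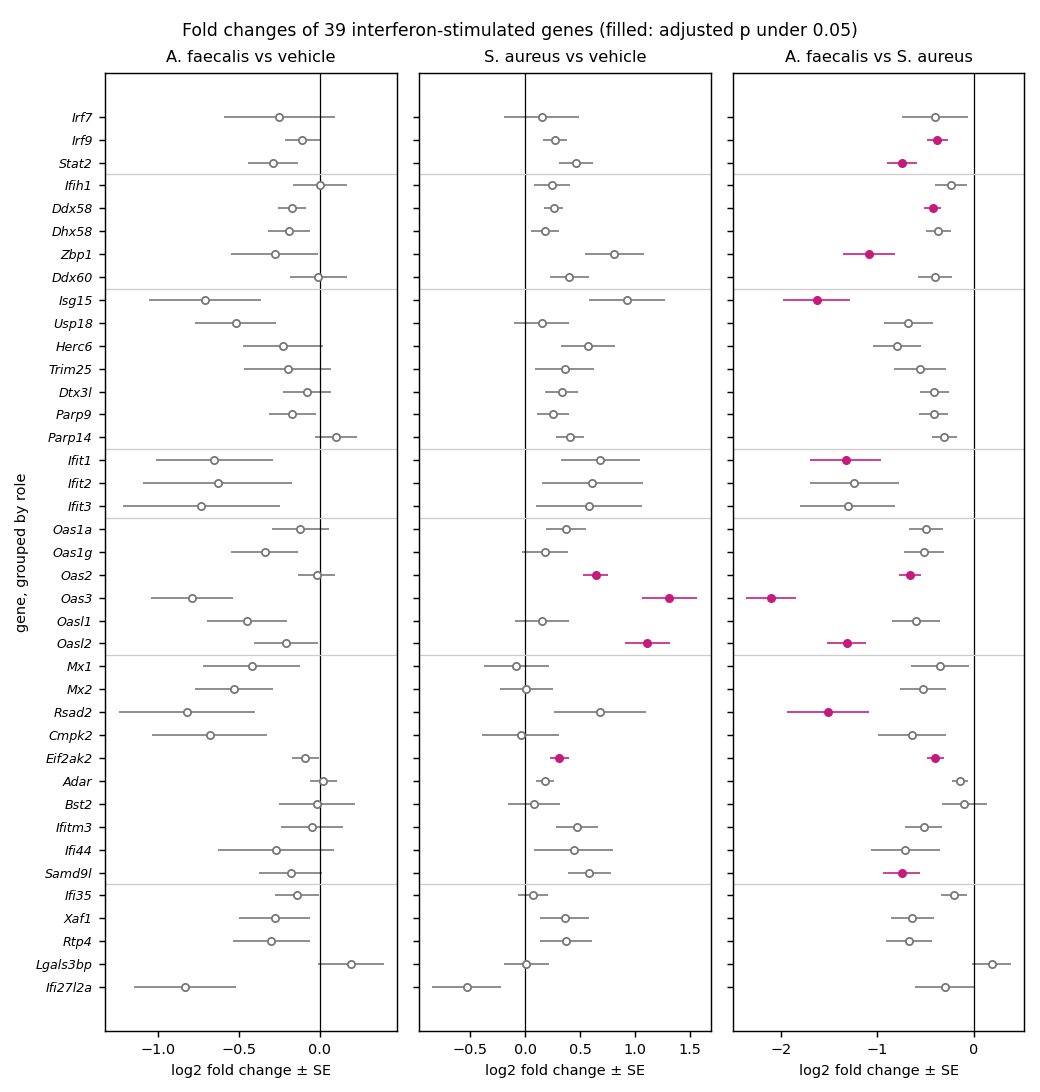
Log2 fold change ± SE (horizontal axis) of the 39 genes, grouped by role down the page, in the 3 comparisons; filled points have an edgeR adjusted p under 0.05. Filled points number 0 for A. faecalis against vehicle, 4 for S. aureus against vehicle and 12 for A. faecalis against S. aureus.

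The signalling genes Stat2, Irf9 and Irf7 encode the partners that carry the interferon signal to DNA, Irf7 being a factor that also drives further interferon production. Stat2 stood at 54.2, 64.3, 61 and 63.7 CPM in A. faecalis libraries, at 117, 81.9, 124 and 86 CPM in S. aureus libraries and at 76.4, 65.3, 93.1 and 63 CPM in vehicle libraries. All 4 S. aureus libraries were above all 4 A. faecalis libraries, while vehicle libraries overlapped both other groups. The log2 fold change of Stat2 was -0.75 for A. faecalis against S. aureus (SE 0.156, edgeR adjusted p = 0.0101) and 0.46 for S. aureus against vehicle (SE 0.156, edgeR adjusted p = 0.0889). Irf9, the DNA-binding partner, measured 45.8, 59.2, 55.2 and 63.9 CPM with A. faecalis, 74.3, 64, 83.8 and 69.3 CPM with S. aureus, against 58.8, 59.6, 58.7 and 64.6 CPM with vehicle. Its highest A. faecalis library lay just under its lowest S. aureus library, and the log2 fold change was -0.38 (SE 0.108, edgeR adjusted p = 0.04), with -0.45 to -0.3 over the 12 fits that left out 1 library. Irf9 was no longer called in fits lacking A. faecalis replicate 1, 2 or 3 or S. aureus replicate 1, 3 or 4 (adjusted p up to 0.112). Irf7 had 71.1, 125, 82.9 and 90.6 CPM with A. faecalis, 124, 76.9, 190 and 98 CPM with S. aureus, against 83.9, 123, 173 and 58.4 CPM with vehicle. The 3 groups of Irf7 overlapped and it was called in no comparison, with edgeR adjusted p-values of 0.476 to 0.865.

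Among the sensors, Ifih1 (MDA5), Ddx58 (RIG-I) and Dhx58 (LGP2) detect foreign RNA, Zbp1 binds nucleic acids in the Z form and can start cell death, and Ddx60 is a helicase linked to RIG-I signalling. Ddx58 showed a tight order of groups: 72.7, 71.7, 75.6 and 78.3 CPM with A. faecalis, 87.5, 97.9, 119 and 96.9 CPM with S. aureus, against 86.8, 82.2, 82 and 84.1 CPM with vehicle. No pair of groups overlapped, yet the steps were small, a log2 fold change of -0.43 for A. faecalis against S. aureus (SE 0.0868, edgeR adjusted p = 0.00894), 0.26 for S. aureus against vehicle (SE 0.0866, edgeR adjusted p = 0.0836) and -0.17 for A. faecalis against vehicle (edgeR adjusted p = 0.668). The call against S. aureus was kept in all 12 fits that left out 1 library. Zbp1 measured 24.2, 47.6, 32.9 and 38 CPM with A. faecalis, 85, 54.1, 113 and 52.3 CPM with S. aureus, against 42.4, 47.3, 51.1 and 32.3 CPM with vehicle. Here the S. aureus libraries lay above every other library, and the fold change was -1.09 for A. faecalis against S. aureus (SE 0.269, edgeR adjusted p = 0.0217), a call lost without A. faecalis replicate 3, A. faecalis replicate 4 or S. aureus replicate 3. Ifih1, at 64.4, 84.1, 76.1 and 103 CPM with A. faecalis, 104, 75.8, 122 and 84.1 CPM with S. aureus, against 81.5, 76.7, 91.4 and 77.3 CPM with vehicle, overlapped in all groups and had a log2 fold change of 0 for A. faecalis against vehicle. Dhx58 and Ddx60 were not called in any comparison, and their fold changes for A. faecalis against S. aureus were -0.37 (edgeR adjusted p = 0.0776) and -0.4 (edgeR adjusted p = 0.154).

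Isg15 encodes a ubiquitin-like protein that is joined to other proteins and also secreted, Herc6 is the ligase that attaches it in mice and Usp18 is the protease that removes it. Isg15 stood at 12.6, 20.1, 13.6 and 17.1 CPM in A. faecalis libraries, at 44.6, 26, 87.1 and 38.7 CPM in S. aureus libraries and at 18.8, 21.9, 40.1 and 23.3 CPM in vehicle libraries. Every A. faecalis library was below every S. aureus library, and S. aureus replicate 3 and vehicle replicate 3 were the highest of their groups. The log2 fold change was -1.63 for A. faecalis against S. aureus (SE 0.351, edgeR adjusted p = 0.0122), called in all 12 fits that left out 1 library, with 0.92 for S. aureus against vehicle (SE 0.345, edgeR adjusted p = 0.116) and -0.71 for A. faecalis against vehicle (SE 0.345, edgeR adjusted p = 0.652). Usp18, which also dampens signalling at the type I receptor, had 9.84, 14.4, 11.9 and 12.5 CPM with A. faecalis, 18.4, 11.8, 28.3 and 19.4 CPM with S. aureus, against 14.4, 13.3, 23.3 and 18.9 CPM with vehicle. Its groups overlapped in part and it was not called, with an edgeR adjusted p of 0.0975 for A. faecalis against S. aureus and 0.652 for A. faecalis against vehicle. The partners Dtx3l and Parp9, which act together as a ubiquitin ligase, and Parp14, an ADP-ribosyltransferase, were measured at group means of 83.5 to 282 CPM. Parp14 averaged 227 ± 20.9 CPM with A. faecalis, 282 ± 47.6 CPM with S. aureus, against 212 ± 23.5 CPM with vehicle (SD, n = 4 each), and its log2 fold change of 0.41 for S. aureus against vehicle had an edgeR adjusted p of 0.0696. Herc6, Dtx3l and Parp9 had S. aureus libraries that were all above the A. faecalis libraries, with edgeR adjusted p-values of 0.0556, 0.0918 and 0.0816. Trim25, the ligase known for modifying RIG-I, averaged 185 ± 36.6 CPM with A. faecalis, 271 ± 55.4 CPM with S. aureus, against 212 ± 88.5 CPM with vehicle, and was not called in any of the 3 comparisons.

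The IFIT proteins bind foreign RNA ends and block translation. Ifit1 measured 21.4, 32.1, 20.8 and 26.3 CPM with A. faecalis, 64.4, 28.9, 107 and 52.8 CPM with S. aureus, against 37.4, 29.8, 62.8 and 27.7 CPM with vehicle. In S. aureus replicate 2 its level lay within the range of the A. faecalis libraries, so the groups overlapped. The fold change of Ifit1 for A. faecalis against S. aureus was -1.33 (SE 0.363, edgeR adjusted p = 0.0337), a call lost without any 1 of the A. faecalis libraries or without S. aureus replicate 1, 3 or 4 (adjusted p up to 0.103). Ifit2 and Ifit3 had nearly equal fold changes of -1.24 and -1.31 and were not called (edgeR adjusted p = 0.101 for each). None of the 3 was called against vehicle (edgeR adjusted p = 0.246 to 0.739), and with 1 library left out their log2 fold changes spanned -0.78 to -0.32 (Ifit1), -0.89 to -0.06 (Ifit2) and -0.97 to -0.25 (Ifit3) for A. faecalis against vehicle, and 0.3 to 1.02, 0.31 to 1.19 and 0.11 to 1.06 for S. aureus against vehicle. They also had a wide spread: Ifit3 differed 5-fold between the highest and the lowest S. aureus library and 4.13-fold between the highest and the lowest vehicle library, and its SD within groups, 0.783 on the log2 scale, was the highest of the 39 genes.

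Oligoadenylate synthetases make a short nucleotide chain that activates the RNA-degrading enzyme RNase L, and the OAS family gave 3 of the 4 calls against vehicle. Oas3 measured 23.8, 41.2, 26.9 and 39.2 CPM with A. faecalis, 129, 111, 205 and 118 CPM with S. aureus, against 37.9, 54.2, 65.1 and 70 CPM with vehicle. All S. aureus libraries were above all others, and the A. faecalis libraries lay low, with 2 of them inside the vehicle range. It had the largest fold changes of the 39 genes in both comparisons with S. aureus, 1.31 for S. aureus against vehicle (SE 0.254, edgeR adjusted p = 0.0167) and -2.1 for A. faecalis against S. aureus (SE 0.261, edgeR adjusted p = 0.00104), and its -0.79 for A. faecalis against vehicle (SE 0.252) had the smallest unadjusted p of the 39 there, with an edgeR adjusted p of 0.534. Oasl2, a relative that binds RNA, stood at 49.8, 66.4, 50.5 and 68.7 CPM with A. faecalis, 154, 111, 210 and 112 CPM with S. aureus, against 74.2, 68.4, 73.2 and 56.6 CPM with vehicle. The S. aureus libraries were again above all others while A. faecalis and vehicle libraries overlapped, with log2 fold changes of 1.11 for S. aureus against vehicle (SE 0.201, edgeR adjusted p = 0.0134) and -1.32 for A. faecalis against S. aureus (SE 0.202, edgeR adjusted p = 0.00263). Oas2 had 41.8, 42.2, 43.9 and 47.9 CPM with A. faecalis, 70.7, 65.1, 82.7 and 59.2 CPM with S. aureus, against 50.5, 48.4, 38.6 and 40.7 CPM with vehicle. Its S. aureus libraries were likewise the highest 4 of the 12, the log2 fold change was 0.64 against vehicle (SE 0.115, edgeR adjusted p = 0.0127) and -0.66 for A. faecalis against S. aureus (SE 0.115, edgeR adjusted p = 0.00457), and A. faecalis and vehicle means were 44 and 44.5 CPM. The calls of Oas2, Oas3 and Oasl2 in both comparisons were kept in all 12 fits that left out 1 library, although with vehicle 3 and S. aureus 3 both left out, a fit chosen after the data were seen, Oas3 against vehicle had an edgeR adjusted p of 0.051. Oas1a, Oas1g and Oasl1 were not called, and their fold changes were -0.5, -0.52 and -0.6 for A. faecalis against S. aureus and 0.37, 0.18 and 0.15 for S. aureus against vehicle.

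**Figure D2:**
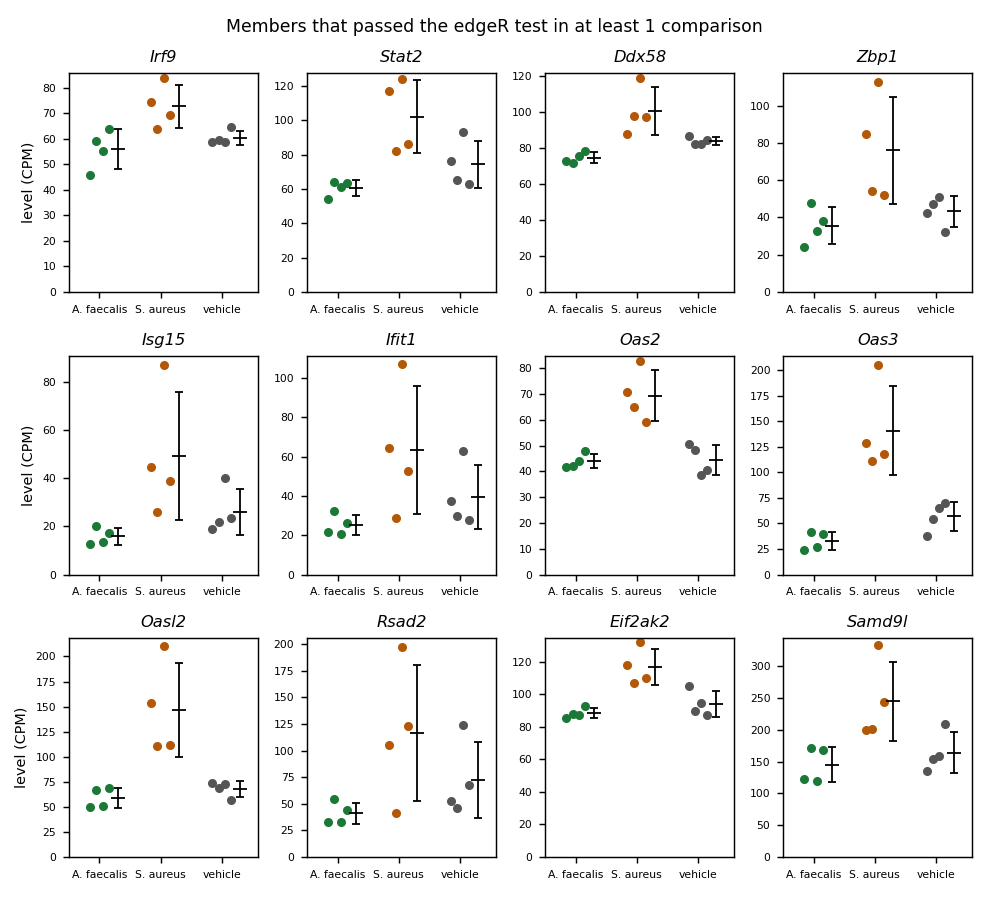
Level in CPM (vertical axis from 0) of the 12 genes called in at least 1 comparison, 1 point per library, with the mean ± SD of the 4 libraries of each group beside the points. For Oas2, Oas3, Oasl2, Eif2ak2, Ddx58 and Zbp1 all 4 S. aureus libraries lie above all other libraries, while for Ifit1 and Rsad2 the lowest S. aureus library falls among those of the other groups.

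Of the 10 other effectors, Eif2ak2 (PKR, a kinase that halts translation when it meets foreign RNA) varied little: 85.6, 88, 87.5 and 92.9 CPM with A. faecalis, 118, 107, 132 and 110 CPM with S. aureus, against 105, 89.8, 94.5 and 87.2 CPM with vehicle. The S. aureus libraries were the highest 4, although S. aureus replicate 2 was close to vehicle replicate 1. Its log2 fold change for S. aureus against vehicle was 0.31 (SE 0.0837, edgeR adjusted p = 0.0457) and 0.25 to 0.39 over the 12 fits that left out 1 library, but the call was kept only without vehicle replicate 1 or A. faecalis replicate 1 (adjusted p 0.0386 to 0.129). Its -0.4 for A. faecalis against S. aureus (SE 0.0837, edgeR adjusted p = 0.0101) was called in all 12 fits. Rsad2 (viperin), an enzyme that makes a chain-terminating nucleotide, measured 33.1, 54.2, 33.2 and 43.8 CPM with A. faecalis, 105, 41.2, 197 and 123 CPM with S. aureus, against 52.9, 45.6, 124 and 67.6 CPM with vehicle. The low S. aureus replicate 2 again lay among the A. faecalis libraries, and the log2 fold change for A. faecalis against S. aureus was -1.51 (SE 0.426, edgeR adjusted p = 0.0393), with -1.79 to -1.13 over those 12 fits. The call was lost without the same libraries as for Ifit1, any A. faecalis library or S. aureus replicate 1, 3 or 4 (adjusted p up to 0.123). Samd9l, a restriction factor that slows translation, had 122, 171, 120 and 168 CPM with A. faecalis, 199, 202, 333 and 244 CPM with S. aureus, against 135, 154, 159 and 209 CPM with vehicle. Vehicle replicate 4 reached into the S. aureus range, whereas the A. faecalis libraries did not, with a fold change of -0.75 for A. faecalis against S. aureus (SE 0.195, edgeR adjusted p = 0.0274), a call lost without A. faecalis replicate 1 or 3 or S. aureus replicate 3 or 4 (adjusted p up to 0.0819).

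The myxovirus resistance genes Mx1 and Mx2 were not called in any comparison. Mx1 stood at 12.2, 25.3, 15.7 and 17.4 CPM with A. faecalis, 24, 15.3, 26 and 24.5 CPM with S. aureus, against 25.8, 19.2, 36.1 and 13.5 CPM with vehicle. Whether a working Mx1 protein is made in this strain was not tested. Mx2 had 4.46, 7.78, 6.15 and 8.66 CPM with A. faecalis, 11.3, 6.87, 11.1 and 9.8 CPM with S. aureus, against 11.3, 7.72, 12.4 and 7.49 CPM with vehicle. Their groups overlapped, and their log2 fold changes for S. aureus against vehicle were -0.08 (SE 0.297) for Mx1 and 0.01 (SE 0.24) for Mx2, the second of which was -0.02 with upper-quartile scaling. A. faecalis against vehicle gave -0.53 for Mx2 (SE 0.241, unadjusted p = 0.0491, edgeR adjusted p = 0.646). The other effectors were not called in any comparison: the antiviral nucleotide kinase Cmpk2, the RNA-editing enzyme Adar, the membrane tether Bst2 (tetherin), the membrane protein Ifitm3, which blocks viral entry, and Ifi44. Their fold changes for A. faecalis against S. aureus were -0.64 for Cmpk2, -0.15 for Adar, -0.1 for Bst2, -0.52 for Ifitm3 and -0.71 for Ifi44, with edgeR adjusted p-values of 0.0985 to 0.815. Ifitm3 averaged 295 ± 45.4 CPM with A. faecalis, 421 ± 114 CPM with S. aureus, against 305 ± 53.7 CPM with vehicle, and had the highest level per length of the 39 genes, 435, 621 and 450 CPM per kb of merged exons in those groups.

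The 5 remaining genes, Ifi35, Xaf1, Rtp4, Lgals3bp and Ifi27l2a, gave no call. Xaf1, a pro-apoptotic protein, and Rtp4, which modulates sensing of nucleic acids, had log2 fold changes of -0.64 and -0.67 for A. faecalis against S. aureus (edgeR adjusted p = 0.0802 and 0.0853), and Ifi35 had -0.21 (edgeR adjusted p = 0.347). Ifi27l2a, induced by interferon in many tissues, measured 78.6, 79.5, 65.1 and 58.2 CPM with A. faecalis, 90.3, 65.6, 136 and 55.8 CPM with S. aureus, against 117, 105, 204 and 75.6 CPM with vehicle. The vehicle group had the highest mean, as it had for Mx1 and Cmpk2, the groups overlapped, and the log2 fold change was -0.83 for A. faecalis against vehicle (SE 0.315, unadjusted p = 0.0216, edgeR adjusted p = 0.595) and -0.53 for S. aureus against vehicle (SE 0.313, edgeR adjusted p = 0.303). Lgals3bp, which encodes a secreted galectin-binding glycoprotein, averaged 400 ± 30.7 CPM with A. faecalis, 353 ± 73.7 CPM with S. aureus, against 351 ± 98.6 CPM with vehicle, differences smaller than the SD of the S. aureus or vehicle libraries. Per kb of merged exons, levels in vehicle wounds ran down to 1.41 CPM for Ifi44, the lowest of the 39.

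The libraries of a group did not share 1 level of these genes. S. aureus replicate 3 had the highest level of its group for 35 of the 39 genes and of all 12 libraries for 30, and S. aureus replicate 2 the lowest of its group for 28. Vehicle replicate 3 was the highest vehicle library for 26 genes and vehicle replicate 4 the lowest for 26. A. faecalis replicate 1 was the lowest of its group for 31 genes and of all 12 libraries for 19. The mean over the 39 genes of log2 CPM, each gene centred on its mean over the 12 libraries, was -0.294 ± 0.204 with A. faecalis, 0.328 ± 0.383 with S. aureus and -0.034 ± 0.254 with vehicle (SD, n = 4 each), with ranges of -0.526 to -0.086, -0.088 to 0.811 and -0.316 to 0.298 in the same order. The S. aureus range met the A. faecalis range only through S. aureus replicate 2, and vehicle libraries overlapped both. Within groups the SD of a gene's log2 CPM had a median of 0.349 over the 39 genes, with 0.105 for Adar as the lowest. The genes called for A. faecalis against S. aureus in every fit that left out 1 library were Ddx58, Eif2ak2, Isg15, Oas2, Oas3, Oasl2 and Stat2. The number called was 7 without S. aureus replicate 3 or A. faecalis replicate 3 and 16 without vehicle replicate 3 or S. aureus replicate 2. Over the same 12 fits, 1313 to 3457 of all genes were called in that comparison, so the number of calls moved for genes at large too.

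**Figure D3:**
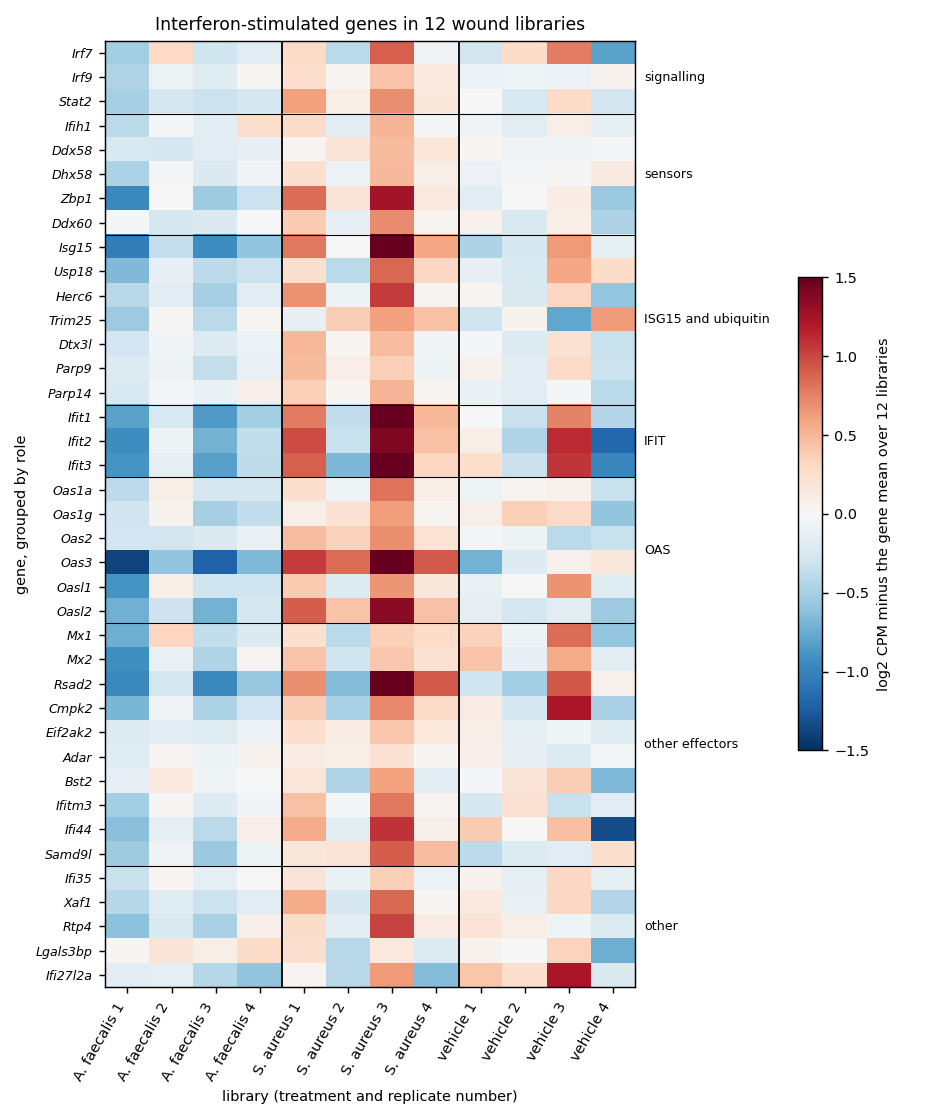
Log2 CPM minus the gene's mean over the 12 libraries (colour, drawn up to 1.5 in either direction) for the 39 genes, grouped by role down the page, in each library. S. aureus replicate 3 is the highest library for 30 of the 39 genes, A. faecalis replicate 1 the lowest for 19, and vehicle replicate 3 stands above the other vehicle libraries for 26.

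Genes upstream of the 39 were read from a list of interferons, their receptors and signalling partners, of which 48 were found and 31 passed the filter. None of the 31 was called for A. faecalis against vehicle, 4 were called for S. aureus against vehicle, all higher, and for A. faecalis against S. aureus 4 were lower and 3 higher, where 0.0110%, 6.84% and 12.7% of all genes tested were called in those comparisons. The type I ligands had few counts: Ifnb1 (interferon beta) had summed counts of 1 over the A. faecalis libraries, 7 over the S. aureus libraries and 3 over the vehicle libraries, and Ifna16, the most counted interferon alpha gene, had 17, 15 and 25. These numbers are too low for a comparison at this depth. The keratinocyte interferon Ifnk averaged 0.841 ± 0.192 CPM with A. faecalis, 0.657 ± 0.164 CPM with S. aureus, against 0.953 ± 0.204 CPM with vehicle, and was not called. Ifng, the interferon gamma gene of T and NK cells, had summed counts of 19 with A. faecalis, 89 with S. aureus and 16 with vehicle. Its log2 fold change was 2.7 for S. aureus against vehicle (SE 0.68, edgeR adjusted p = 0.038) and -2.52 for A. faecalis against S. aureus (SE 0.666, edgeR adjusted p = 0.0295), calls kept in only 4 and 6 of the 12 fits that left out 1 library, both of them lost without S. aureus replicate 2 or 3, or without A. faecalis replicate 2, 3 or 4, among others.

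The receptor chains Ifnar1 and Ifnar2 were not called in any comparison, with Ifnar1 at 289 ± 44.4 CPM with A. faecalis, 220 ± 18.5 CPM with S. aureus, against 235 ± 60.1 CPM with vehicle (SD, n = 4 each). Irf1, a transcription factor induced by interferon gamma, had 51.6, 80.2, 81.8 and 69.9 CPM with A. faecalis, 215, 165, 221 and 120 CPM with S. aureus, against 68.5, 75, 73.6 and 58.9 CPM with vehicle. Its S. aureus libraries were the highest 4, and both fold changes, 1.38 for S. aureus against vehicle (SE 0.197, edgeR adjusted p = 0.00776) and -1.35 for A. faecalis against S. aureus (SE 0.197, edgeR adjusted p = 0.00215), were kept in all 12 fits. Socs1, a feedback inhibitor of Jak kinases, and Sting1, the adaptor of DNA sensing, were higher with S. aureus than with vehicle (log2 fold changes 1.09 and 0.53, edgeR adjusted p = 0.0469 and 0.0154) and lower with A. faecalis than with S. aureus (-1.25 and -0.33, edgeR adjusted p = 0.0175 and 0.0496). With A. faecalis against vehicle they had -0.16 and 0.2 (edgeR adjusted p = 0.905 and 0.654). The Socs1 call against vehicle was kept in 4 of the 12 fits, the Sting1 call against vehicle in all 12, and for A. faecalis against S. aureus the Socs1 call was lost without S. aureus replicate 3 and the Sting1 call kept only without vehicle replicate 3. The 3 upstream genes higher with A. faecalis than with S. aureus were the DNA sensor Tlr9 (1.43, edgeR adjusted p = 0.00344), the kinase Ikbke (2.52, edgeR adjusted p = 0.00928) and the shared receptor chain Il10rb (0.6, edgeR adjusted p = 0.0441), of which the Il10rb call was kept in 3 of the 12 fits and the others in all 12.

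A further list of targets and antigen presentation genes, known mainly from the response to interferon gamma, had 26 members, all tested. None was called for A. faecalis against vehicle, 4 were higher for S. aureus against vehicle and 9 were lower for A. faecalis against S. aureus, where 3.87% of all genes tested were called higher for S. aureus against vehicle and 7.62% lower for A. faecalis against S. aureus. For A. faecalis against vehicle only 0.0110% of all genes tested were called, which left little room for a call. Median log2 fold changes of the 26 were -0.07, 0.43 and -0.39 for A. faecalis against vehicle, S. aureus against vehicle and A. faecalis against S. aureus, against -0.028, -0.037 and 0.022 over all genes tested. The 4 were the chemokine gene Cxcl9 (1.79, edgeR adjusted p = 0.0271), the peptide transporter gene Tap1 (0.75, edgeR adjusted p = 0.0259) and the immunity-related GTPase genes Igtp (1.51, edgeR adjusted p = 0.0298) and Irgm1 (0.91, edgeR adjusted p = 0.0416). Cxcl9 had 66.6, 37.9, 38.4 and 50.3 CPM with A. faecalis, 104, 53, 88.6 and 36.8 CPM with S. aureus, against 13.8, 29.8, 28.4 and 9.6 CPM with vehicle. Every A. faecalis library thus lay above every vehicle library, with a log2 fold change of 1.24 that was not called (SE 0.4, edgeR adjusted p = 0.539). For A. faecalis against S. aureus the Cxcl9 value was -0.55 (edgeR adjusted p = 0.398). Those lower with A. faecalis than with S. aureus were Tap1, Tap2, Igtp, Irgm1, Irgm2, Iigp1, Ifi47, Tgtp1 and Tgtp2, and the largest of these fold changes was -2.17 for Tgtp2 (SE 0.515, edgeR adjusted p = 0.019). Igtp had 21.7, 35.3, 24 and 27.9 CPM with A. faecalis, 146, 75.9, 125 and 51.9 CPM with S. aureus, against 39.4, 27.5, 53 and 20.2 CPM with vehicle. Its lowest S. aureus library was just under the highest vehicle library and above all A. faecalis libraries. Without S. aureus replicate 3 the calls against vehicle of Cxcl9, Tap1, Igtp and Irgm1 were all lost. The Cxcl9 call was also lost without vehicle replicate 1, the Igtp call without vehicle replicate 1 or 2 or S. aureus replicate 2, and the Irgm1 call in 9 of the 12 fits. For A. faecalis against S. aureus, Tap1, Igtp, Irgm1 and Ifi47 were called in all 12.

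**Figure D4:**
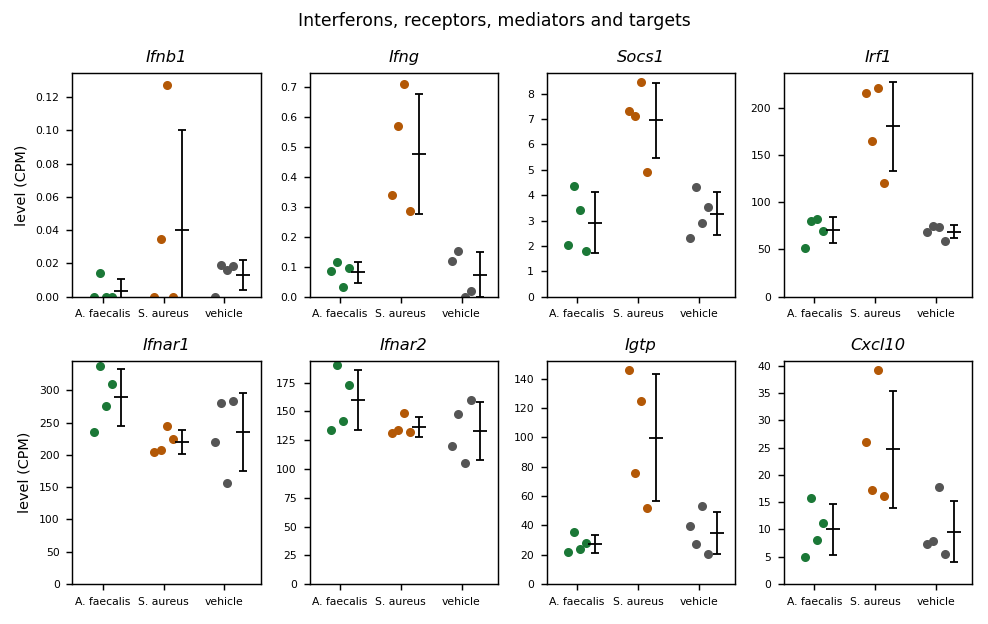
Level in CPM (vertical axis from 0) of ligands (Ifnb1, Ifng), receptor chains (Ifnar1, Ifnar2), signalling genes (Socs1, Irf1) and targets (Igtp, Cxcl10), 1 point per library, with mean ± SD of the 4 libraries of each group, the bar cut at 0. Socs1 and Irf1 are higher in all 4 S. aureus libraries than in any other library, and Ifnb1 is near 0 in all 3 groups.

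Levels of some cell type markers differed between these groups, and their part in the results was not tested. Over all genes tested, 3.87% were called higher and 2.97% lower for S. aureus against vehicle. For A. faecalis against S. aureus, 5.06% were called higher and 7.62% lower. In lists of 6 to 12 markers, 1 call carries little weight beside these shares. Summed over 12 neutrophil markers, levels were 2280 to 5020 CPM with A. faecalis, 10400 to 16700 CPM with S. aureus, against 870 to 9810 CPM with vehicle, and 7 of the 12 were called lower for A. faecalis against S. aureus and 2 higher for S. aureus against vehicle. Vehicle replicate 3, the vehicle library with the highest levels of most of the 39 genes, had the lowest neutrophil score of the 12 (-2.847) and the highest adipocyte score (2.275, against at most 0.602 elsewhere). For 12 monocyte and macrophage markers the sums were 6020 to 8300 CPM with A. faecalis, 3720 to 4700 CPM with S. aureus, against 4270 to 7280 CPM with vehicle, the opposite direction. Of these markers 5 were called higher for A. faecalis against S. aureus and 1 lower for S. aureus against vehicle. Ly6c2 and Cx3cr1 went against the sums for A. faecalis against S. aureus (-1 and -0.24, neither called). Ly6c2 averaged 58.3 ± 19.5 CPM with A. faecalis, 116 ± 47.7 CPM with S. aureus, against 55.3 ± 19.8 CPM with vehicle. The 9 markers of plasmacytoid dendritic cells summed to 230 to 288 CPM with A. faecalis, 281 to 295 CPM with S. aureus, against 260 to 293 CPM with vehicle. Most of each sum was Tcf4, at means of 199, 210 and 211 CPM in the same order. Siglech averaged 3.55, 4.89 and 3.8 CPM. The 1 marker called lower for A. faecalis against S. aureus was Runx2, at means of 30.1, 49.2 and 35.1 CPM. The 11 T and NK cell markers summed to 26.4 to 43.1 CPM with A. faecalis, 16.8 to 30.4 CPM with S. aureus, against 19.3 to 26.9 CPM with vehicle. Of the 10 tested, Cd4 and Ncr1 were called higher for A. faecalis against S. aureus. The median of the 10 was 0.63 there, with Gzmb (-0.83), Cd3d (-0.25) and Cd3e (-0.1) below 0. Endothelial markers summed to 888 to 1220 CPM with A. faecalis, 1270 to 1440 CPM with S. aureus, against 794 to 1150 CPM with vehicle, with 2 of 6, Pecam1 and Emcn, called higher for S. aureus against vehicle and Emcn lower for A. faecalis against S. aureus. Cdh5 (0.58), Kdr (0.09), Tek (-0.05) and Vwf (0.09) were not called for S. aureus against vehicle. Of 7 fibroblast markers Pdgfra was called higher and Dpt lower for S. aureus against vehicle and Pdgfra lower for A. faecalis against S. aureus, and no adipocyte or skeletal muscle marker was called. Keratinocyte markers, which check the labelled skin, were present in every library, at 1000 to 1760 CPM with A. faecalis, 1600 to 4890 CPM with S. aureus, against 2220 to 3100 CPM with vehicle. Of 12 keratinocyte markers, the wound-edge keratins Krt6a, Krt16 and Krt17 were called lower and Krt15 higher for A. faecalis against S. aureus, and Krt15 was called lower for S. aureus against vehicle. No marker of any of these lists was at 0 in all libraries of a group.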

How the data were processed

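RNA of wounded skin was measured in 12 libraries. The authors' deposited values were read as estimated counts without normalization, since they are fractional and their totals differ between libraries. The titles of the S. aureus libraries use another abbreviation (ARM), and their treatment label, which says Staphylococcus aureus, was followed. The submitters' processing notes name kallisto 0.48.0, DESeq2 1.34.0, FastQC 0.12.1 and R 4.1.3 with genome build GRCm39, without saying what DESeq2 was used for, and the step from transcripts to genes is not stated. Of 29957 entries, 1 had no gene name (0.00909% to 0.0151% of a library) and was dropped. A chi-square comparison of replicates gave at least 28 and at most 460 per degree of freedom within groups, so none looked like a repeat deposit of another in its group. Libraries of different groups were not compared in this way.

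Counts were rounded and fitted in edgeR 4.0.16 (R 4.3.3) with filterByExpr (minimum count 10, minimum total 15), TMM scaling and 1 mean per group over all 12 libraries. Its two-sided quasi-likelihood test (robust setting), with Benjamini-Hochberg adjustment over 18218 genes at a threshold of 0.05, gave the calls. Each printed SE was derived from that test, as the absolute log2 fold change divided by the square root of the F statistic. Alternatives were other scalings, filters, threshold and tests (limma-voom in limma 3.58.1, DESeq2 1.42.0), a 2-group fit, a replicate block and each library left out.

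Values of every library are printed for genes called in any comparison, for the 4 with the smallest unadjusted p in each comparison and for chosen members of each role. The 39 genes, the other lists and these rules were chosen with earlier results of these data known. Promoters are RefSeq's for GRCm38.p6 and were searched for the motif by script. For the upstream signalling list, 1 gene is not reported here.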

Additional observations from a re-analysis of the deposited data

Results flagged for a closer look

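Of the 120 groups of 4 libraries looked at (the 39 genes and their mean, in 3 groups), 2 (1.67%) held a library whose gap to the nearest of the others exceeded Dixon's critical value of 0.829 of the group's range, where chance flags about 1 in 20 such groups. Irf9 stood at 64.6 CPM in vehicle replicate 4, against 58.7 to 59.6 CPM in the other vehicle libraries. Oasl1 stood at 41.6 CPM in vehicle replicate 3, against 23 to 26 CPM in the other vehicle libraries. Neither gene was called for A. faecalis or S. aureus against vehicle.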

How the results depend on the processing

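The median log2 fold changes of the 39 genes kept their sign under every alternative run, and each call of Oas2 and Oasl2 was kept in the fits that left out 1 library and with both vehicle 3 and S. aureus 3 left out. Among the counts printed here, the number of called genes moved most with the test and the threshold. For the fit of 2 groups, the calls among the 39 in both comparisons with S. aureus are not given here. S. aureus against vehicle had 4 calls, 10 with the DESeq2 Wald test, 9 at a threshold of 0.1, 2 with vehicle 3 and S. aureus 3 both left out (chosen after the data were seen) and 3 to 4 with 1 library left out. A. faecalis against S. aureus had 12 calls, 21 with DESeq2, 21 at a threshold of 0.1 and 7 to 16 with 1 library left out. A. faecalis against vehicle had 0 calls in every fit, and its genes with groups that did not overlap numbered 1, or 2 with upper-quartile scaling. Over all genes, DESeq2 called 122 for A. faecalis against vehicle, 2868 for S. aureus against vehicle and 3474 for A. faecalis against S. aureus, at a threshold of 0.1 the numbers were 2, 2859 and 3650, a fit of 2 groups called 2, 350 and 3459, and S. aureus against vehicle had 296 calls with both libraries left out, where the main numbers were 2, 1246 and 2310. With 1 library left out these numbers spanned 2 to 10, 260 to 1750 and 1313 to 3457. The causes were not tested.

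The replicate numbers of the labels gave no clear pairing over the 3 groups: deviations from group means correlated at -0.21 to 0.182 over 12 same-numbered pairs, 3 of them over 0.1, and 1 library was closest to its own number. Between A. faecalis and vehicle the values were 0.07, 0.182, 0.146 and 0.17 for replicates 1 to 4, and pairs with S. aureus had -0.21 to 0.08. With the replicate number as a block, the numbers called were 0, 3 and 9 and the medians -0.17, 0.33 and -0.52 for A. faecalis against vehicle, S. aureus against vehicle and A. faecalis against S. aureus. Over all genes the block fit called 2 for A. faecalis against vehicle. Its totals for both comparisons with S. aureus are not given here, so the 3 and 9 calls are not set against a share.

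Signs changed for the following fold changes, none of them called. For A. faecalis against vehicle, Ddx60 was 0 with DESeq2 size factors, upper-quartile scaling, no filter or DESeq2, 0.01 with a mean of at least 1 CPM or limma-voom, 0.02 with the replicate block and 0.08 with both libraries left out, Bst2 was 0.02 with the replicate block or limma-voom and 0.13 with both left out, Ifih1 was -0.01 with limma-voom, and Irf7, Dtx3l and Adar were 0.07, 0.04 and -0.01 with both left out. For S. aureus against vehicle, Mx2 was -0.02 with upper-quartile scaling or limma-voom, Lgals3bp was -0.01 with upper-quartile scaling, Cmpk2 was 0.04 with the replicate block, 0.02 with limma-voom and 0.29 with both left out, and Mx1 was 0.13 with both left out. For A. faecalis against S. aureus with both left out, Bst2 was 0.12 and Ifi27l2a was 0.

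With 1 library left out, fold changes that crossed 0 for A. faecalis against vehicle spanned -0.45 to 0.07 for Irf7, -0.13 to 0.11 for Ifih1, -0.1 to 0.08 for Ddx60, -0.38 to 0.1 for Trim25, -0.15 to 0.05 for Dtx3l, -0.07 to 0.06 for Oas2, -0.01 to 0.09 for Adar, -0.19 to 0.13 for Bst2 and -0.11 to 0.09 for Ifitm3. For S. aureus against vehicle they spanned -0.14 to 0.48 for Irf7, -0.08 to 0.34 for Usp18, -0.26 to 0.22 for Mx1, -0.1 to 0.16 for Mx2, -0.22 to 0.48 for Cmpk2, -0.14 to 0.24 for Bst2, -0.02 to 0.19 for Ifi35 and -0.16 to 0.18 for Lgals3bp. For A. faecalis against S. aureus they spanned -0.25 to 0.12 for Bst2 and -0.46 to 0 for Ifi27l2a. The 39 genes averaged 7.64 to 368 CPM, and the number of 4 mice per group limits the precision.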
